A study of Mus musculus with 8 samples.

Results

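The matrix proteases of the MMP and ADAMTS families and their inhibitors, the TIMPs, were examined across 8 RNA sequencing libraries of 3 mouse tumour cell lines. The genes were chosen by symbol: every Mmp gene with a number, every Adamts gene with a number, and Timp1 to Timp4, without the Adamtsl genes. This gave 46 of the 55401 genes in the count table, of which 23 were Mmp, 19 Adamts and 4 Timp genes. The libraries hold polyadenylated RNA of EHE6 (3 libraries), EHE17 (3 libraries) and EHE26 (2 libraries), and the labels give no strain, genotype, treatment or passage for any of them. EHE stands for epithelioid hemangioendothelioma, a rare tumour of vascular endothelial cells. The labels state no question beyond profiling the lines, and the 3 pairs of lines were compared.

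MMPs are secreted or membrane-bound zinc proteases made as inactive proenzymes, and between them they cut collagens, laminins, fibronectin and other matrix proteins. ADAMTS enzymes are secreted relatives with thrombospondin repeats that cut proteoglycans such as versican, trim procollagens or process von Willebrand factor. TIMPs bind the active site of these enzymes and inhibit them. In endothelium, the membrane enzyme MMP14 is known for its part in sprouting, and together with TIMP2 it activates MMP2 at the cell surface.

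The total count was between 44620965 and 96237665 per library. Levels within a gene are given as CPM, read counts scaled to library size with TMM, and values of a line are listed in the order of its replicate numbers. Levels of different genes are compared only as RPKM, which is CPM per kilobase of exon. A gene was called where its edgeR adjusted p, corrected over all 18882 tested genes, was under 0.05 and its absolute log2 fold change was at least 1. It is not stated whether the replicates come from separate cultures. The p-values given here reflect only how far libraries spread within the lines, which may be technical. In the main fit that spread was estimated over all 3 lines together, so libraries of the third line also bear on each comparison. The libraries did not group by line alone: on the first principal component, with 56.2% of the variance, replicates 1 and 2 of EHE6 and EHE17 lay on one side. Replicate 3 of EHE6, replicate 3 of EHE17 and both EHE26 libraries lay on the other. EHE26 thus has no library on the first side. The sum of 10 endothelial markers was 2614 to 11159 CPM in EHE6, 5335 to 8863 in EHE17 and 3784 to 4620 in EHE26. Their median log2 fold change was -1.59 in EHE26 against EHE6 and -1.18 against EHE17, and none was called. Pecam1 was the steadiest of them, at 1179 to 1675 CPM over the 8 libraries, whereas Cldn5 was at 403, 287 and 1.05 CPM in EHE6, 279, 769.7 and 324 in EHE17 and 7.95 and 0.526 in EHE26 and Kdr at 829, 1042 and 22.1 CPM in EHE6, 569, 669 and 243 in EHE17 and 102 and 46.2 in EHE26. The 10 macrophage and leukocyte markers summed to 49.7 to 54.2, 89.5 to 150 and 50.5 to 72.2 CPM in the order EHE6, EHE17 and EHE26, carried mainly by Cd14 (13.4 to 118 CPM) and Lyz2 (13.7 to 37.2 CPM), while Ptprc was at 0.381 to 1.49 CPM. Cd68 was at 29.5 CPM in EHE17 replicate 3 and at 1.39 to 5.68 CPM in the other libraries. The 10 neutrophil markers summed to at most 0.422 CPM. In these bulk libraries, fewer expressing cells and less RNA per cell cannot be told apart.

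Of the 23 Mmp genes, 10 lie next to each other on chromosome 9, within chr9:7272514-7699585 of GRCm38, a stretch of 427 kb. In order of position they are Mmp13, Mmp12, Mmp1b, Mmp3, Mmp1a, Mmp10, Mmp8, Mmp27, Mmp20 and Mmp7. Several genes of this cluster are known to answer to AP-1, the FOS and JUN transcription factor dimer that binds TGANTCA. The 110 bases just before the start of 8 of these genes are printed here. Mmp13, Mmp1a and Mmp10 show wide gaps between EHE26 and the other lines, while Mmp3 was highest in EHE26 with EHE17 replicate 3 close below. All of these share that motif close to the start with others of the cluster, while Mmp8 serves as an example without it. The sequences are from RefSeq on GRCm38.p6, read 5′ to 3′ on the strand of the gene, with TGANTCA matches in capitals.
Mmp13 (chr9:7272404-7272513, plus strand): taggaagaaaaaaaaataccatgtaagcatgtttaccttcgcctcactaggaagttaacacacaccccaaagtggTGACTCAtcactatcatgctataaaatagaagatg
Mmp3 (chr9:7445712-7445821, plus strand): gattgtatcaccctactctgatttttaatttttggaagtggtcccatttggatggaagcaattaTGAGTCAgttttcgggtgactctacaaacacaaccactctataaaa
Mmp1a (chr9:7464031-7464140, plus strand): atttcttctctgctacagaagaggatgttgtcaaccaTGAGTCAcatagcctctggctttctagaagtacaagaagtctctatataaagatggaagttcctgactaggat
Mmp10 (chr9:7502232-7502341, plus strand): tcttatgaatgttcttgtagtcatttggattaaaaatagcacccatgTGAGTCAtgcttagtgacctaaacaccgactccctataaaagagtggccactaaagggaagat
Mmp1b (chr9:7388027-7388136, minus strand): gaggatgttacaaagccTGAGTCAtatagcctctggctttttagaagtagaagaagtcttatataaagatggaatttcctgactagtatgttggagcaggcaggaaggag
Mmp7 (chr9:7691980-7692089, plus strand): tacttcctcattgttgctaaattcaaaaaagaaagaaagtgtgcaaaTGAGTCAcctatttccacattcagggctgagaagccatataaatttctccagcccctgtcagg
Mmp20 (chr9:7628121-7628230, plus strand): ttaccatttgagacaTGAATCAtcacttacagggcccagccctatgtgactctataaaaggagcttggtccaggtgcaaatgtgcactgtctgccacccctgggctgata
Mmp8 (chr9:7558319-7558428, plus strand): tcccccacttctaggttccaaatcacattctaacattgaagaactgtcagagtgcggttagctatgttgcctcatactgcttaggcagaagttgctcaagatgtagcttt

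The motif search covered the 35 RefSeq promoters that matched 32 of the 46 genes, each from 250 bases before to 50 bases after the start, on both strands. TGANTCA was found in 8 of the 12 promoters of the cluster (66.7%), in 0 of the 23 promoters of the other 22 genes, and in 7.81% of all 32851 promoters in the table. Its first base lay 35 bases before the start in Mmp13, 46 in Mmp3, 63 in Mmp10 and 73 in Mmp1a. Mmp1b (93 bases), Mmp7 (63), Mmp20 (95) and the second promoter of Mmp12 (44) also held it, while the windows of Mmp8 and Mmp27 did not. The ETS motif GGAAGT was found in 7 of the 12 cluster promoters (58.3%), against 13.0% of the other promoters of these families and 23.8% of all promoters. The TEAD motif GGAATG was in none of the 12, in 2 of the 23 others (Adamts13 and Timp1) and in 14.7% of all promoters. These matches describe the letters of the windows and no binding was measured.

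Of the 46 genes, 38 had enough reads to be tested: 18 Mmp, 16 Adamts and all 4 Timp genes. The calls were few and fell on 3 genes. Adamts12 was lower in EHE17 than in both other lines, Mmp13 was higher in EHE26 than in both other lines, and Mmp1a was higher in EHE26 than in EHE6. In EHE17 against EHE6, 1 of 38 was called, against 0.143% of all tested genes called in either direction and 0.0636% called lower. In EHE26 against EHE6, 2 of 38 were called, both higher, against 1.26% of all genes in either direction and 1.1% higher. In EHE26 against EHE17, 2 of 38 were called, both higher, against 1.08% and 0.89%. Without EHE6 replicate 3 the 1 call in EHE17 against EHE6 stood. In EHE26 against EHE6, 7 of 38 genes of the families were then called, beside 8.58% of all genes. In EHE26 against EHE17 it was 13 of 38, beside 7.44%. Mmp10 is in both of these counts and Adamts8 in the second. In the main fit both genes reached the low-count filter only through EHE26, where they are high. Each count of calls also went to 0 without some other library: in EHE17 against EHE6 without EHE6 replicate 1 or 2 or any 1 library of EHE17 or EHE26, in EHE26 against EHE6 without EHE6 replicate 2 or EHE26 replicate 1, and in EHE26 against EHE17 without EHE17 replicate 1 or 2 or EHE26 replicate 2.

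At an unadjusted p under 0.05 there were 6, 12 and 16 of 38 in the same order, where all tested genes gave 6.90%, 15.9% and 16.6%. The median log2 fold change of the 38 was -0.23 in EHE17 against EHE6, 0.13 in EHE26 against EHE6 and 0.86 in EHE26 against EHE17, while over all genes it was -0.03, -0.11 and -0.11. Of the 38, Adamts8, Mmp10 and Mmp1b reached the low-count filter only through the EHE26 libraries, where they are high, so they had to differ. Mmp10 is among the 12 and the 16 with an unadjusted p under 0.05, and Adamts8 is among the 16. Without them and the other genes admitted in that way, the median was -0.25 in EHE26 against EHE6, on the other side of 0, and 0.47 in EHE26 against EHE17, beside -0.13 and -0.13 over all genes. Genes near 0 in EHE26 and admitted through the other lines stayed in, such as Adamts15 and Timp4 (-7.16 and -5.28 against EHE6). The removal was thus on one side only, and the lower medians follow from it. Such genes also remain in the counts below, as Mmp24 against EHE6 and Adamts17 against EHE17. In EHE17 and EHE6 the library ranges overlapped for all but 4 of the 38, a share without overlap of 10.5% beside 12.2% of all tested genes. EHE26 and EHE6 did not overlap for 20 of the 38 (14 higher and 6 lower in EHE26), or 52.6% beside 31.3% of all genes. For EHE26 and EHE17 this held for 25 of the 38 (19 higher and 6 lower), or 65.8% beside 39.0%. Without the 3 genes named, these counts were 17 of 35 (48.6%, beside 30.9%) and 22 of 35 (62.9%, beside 38.6%). Both EHE26 libraries lay above all 6 others for 13 of the 38 (34.2%), against 9.88% of all genes, and for 10 of 35 (28.6%, against 9.14%) without those 3. The 13 were Adamts2, Adamts6, Adamts8, Adamts10, Mmp1a, Mmp1b, Mmp3, Mmp10, Mmp13, Mmp14, Mmp16, Timp1 and Timp2, of which 5 (Mmp1a, Mmp1b, Mmp3, Mmp10 and Mmp13) are in the chromosome 9 cluster. Both EHE26 libraries lay below all others for Mmp15, Mmp17 and Timp3 (7.89%, against 7.81% of all genes).

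**Figure D1:**
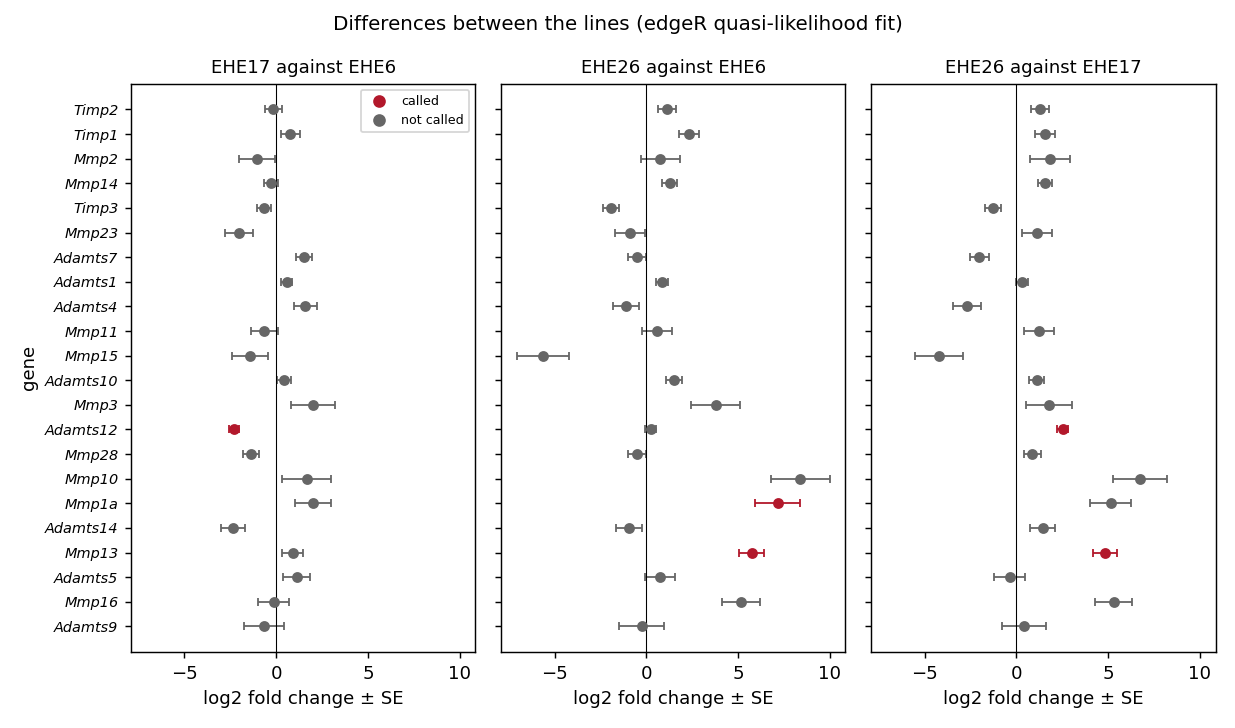
Log2 fold change (x axis) with its standard error (bars) from edgeR for each of the 22 genes with a mean of at least 10 CPM in some line (y axis), 1 panel per comparison, called genes in red. The red points are Adamts12 at -2.30 in EHE17 against EHE6, Mmp13 and Mmp1a in EHE26 against EHE6, and Adamts12 and Mmp13 in EHE26 against EHE17.

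Within the cluster, the collagenase gene Mmp13 separated EHE26 from the other lines most clearly. Mmp13 (chr9:7272514-7283331, plus strand) was at 0.337, 0.169 and 0.147 CPM in EHE6, 0.621, 0.398 and 0.201 in EHE17 and 11.6 and 12.1 in EHE26. Both EHE26 libraries lay far above the other 6, which were all under 1 CPM. The log2 fold change was 5.75 ± 0.68 (SE) against EHE6 (adjusted p = 0.00754, edgeR), or 53.6-fold. Against EHE17 it was 4.85 ± 0.65 (adjusted p = 0.0174), or 28.9-fold. Against the single EHE6 library on the same side of the principal component, replicate 3, the gene also stood out, with a log2 fold change of 6.31 (adjusted p = 0.0270, the lone library being assumed to vary like the EHE26 libraries). The call against EHE6 was lost without EHE6 replicate 2 (adjusted p = 0.0535) and without EHE26 replicate 1 (0.0554). The call against EHE17 was lost without EHE17 replicate 1 (0.0822) or 2 (0.0975) and without EHE26 replicate 1 (0.109) or 2 (0.108).

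Mmp1a (chr9:7464141-7476869, plus strand), a mouse relative of interstitial collagenase that the annotation lists as a polymorphic pseudogene, was at 0.148, 0.0847 and 0 CPM in EHE6, 0.398, 0.122 and 0.482 in EHE17 and 5.997 and 17.5 in EHE26. In reads this is 11, 6 and 0 in EHE6, 32, 11 and 24 in EHE17, and 326 and 798 in EHE26, so the gene was close to unread outside EHE26 and the EHE26 libraries differed from each other. The log2 fold change was 7.15 ± 1.23 against EHE6 (adjusted p = 0.0379, edgeR) and 5.14 ± 1.12 against EHE17 (adjusted p = 0.0858, not called). Against EHE6 the call was lost in 9 of 15 alternatives, among them the fit of these 2 lines alone (adjusted p = 0.102), the side of the principal component as a term (0.0559), the libraries of EHE26's side alone (0.0505), and leaving out either EHE26 library (0.108 and 0.222), EHE6 replicate 1 (0.132) or 2 (0.181), or EHE17 replicate 1 (0.0869) or 2 (0.0680). Mmp1a and Mmp1b are close copies, so how their reads were divided is uncertain. Mmp1b was at most 0.460 CPM in any library, and 10.8% of its exon bases overlap Mmp12 on the opposite strand.

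The stromelysins Mmp10 and Mmp3, which cut non-fibrillar matrix proteins and can activate other pro-MMPs, lie on either side of Mmp1a. Mmp10 was at 0, 0 and 0.126 CPM in EHE6, 0.0746, 0.199 and 0.0803 in EHE17 and 4.75 and 21.2 in EHE26. It was all but unread in EHE6 and EHE17, and its EHE26 libraries differed by 4.47-fold. Its log2 fold change was 8.39 ± 1.61 against EHE6 (adjusted p = 0.0579, edgeR) and 6.74 ± 1.46 against EHE17 (adjusted p = 0.0858), and neither was called. Mmp3 was at 2.17, 2.79 and 0.0630 CPM in EHE6, 2.01, 2.66 and 15.6 in EHE17 and 18.1 and 27.9 in EHE26. The EHE26 libraries were the highest, yet EHE17 replicate 3 came within 1.16-fold of the lower one, and EHE6 replicate 3 was the lowest library of all. Mmp3 was not called against EHE6 (log2 fold change 3.77 ± 1.32, adjusted p = 0.256). The elastase gene Mmp12 had a different order, with 0.889, 0.804 and 6.43 CPM in EHE6, 0.683, 0.753 and 2.17 in EHE17 and 1.80 and 2.54 in EHE26, so that its highest library was EHE6 replicate 3.

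The rest of the cluster was silent or nearly so. The enamel protease Mmp20 and the epithelial matrilysin Mmp7 had no read in any of the 8 libraries, which allows a level of up to 0.00584 CPM (3 counts over all libraries, counting error only). Mmp8, the neutrophil collagenase, was at no more than 0.0269 CPM and Mmp27 at no more than 0.0564 CPM. Mmp7 and Mmp20 are among the printed promoters that hold TGANTCA, and neither had a read.

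**Figure D2:**
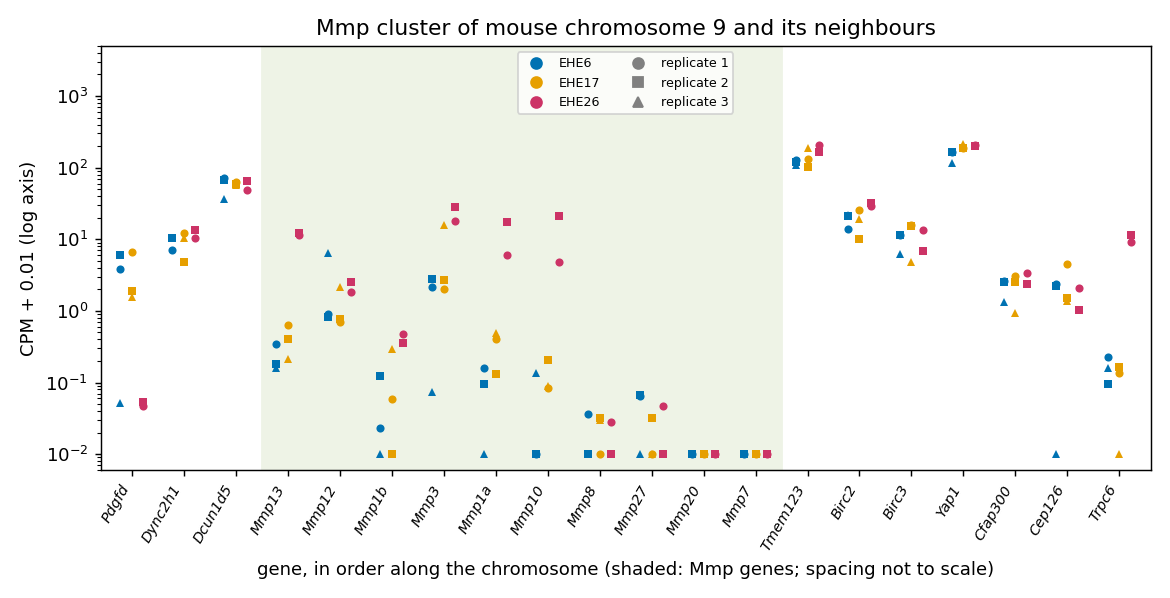
Level in every library (y axis, CPM plus 0.01 on a log axis) of the 10 Mmp genes of the chromosome 9 cluster (shaded) and the 10 protein-coding genes around them (x axis, in chromosome order, not to scale), coloured by line with a symbol per replicate. Mmp13, Mmp1a and Mmp10 sit under 1 CPM in EHE6 and EHE17 and at 4.75 to 21.2 CPM in EHE26, and of the neighbours Trpc6 shows a gap of that kind.

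The genes on either side of the cluster were read to see whether the difference reached past it. Of the 10 protein-coding neighbours whose spans reach within 1 Mb of it, 1 was called, the cation channel gene Trpc6. Of all tested genes, 1.26% were called in EHE26 against EHE6 and 1.08% in EHE26 against EHE17. Like Mmp10, Trpc6 reached the low-count filter only through the EHE26 libraries, where it is high, so it had to differ. Trpc6 was at 9.11 and 11.6 CPM in EHE26 and at most 0.216 CPM elsewhere, with a log2 fold change of 6.10 against EHE6 (adjusted p = 0.0429, edgeR) and 6.71 against EHE17 (adjusted p = 0.0381). The nearest neighbours did not pass: Dcun1d5, upstream of Mmp13, was at 71.7, 67.9 and 36.9 CPM in EHE6, 62.4, 58.7 and 56.7 in EHE17 and 49.5 and 64.9 in EHE26, and Tmem123, beyond Mmp7, was at 126, 119 and 110.3 CPM in EHE6, 132, 103 and 186 in EHE17 and 205 and 166 in EHE26. Both Trpc6 calls were lost when either EHE26 library, replicate 1 or 2 of EHE6, or replicate 1 or 2 of EHE17 was left out, with adjusted p up to 0.216 against EHE6 and 0.203 against EHE17. Yap1, between Tmem123 and Trpc6, was at 114 to 211 CPM in all libraries.

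Mmp14, Mmp2 and Timp2, the genes of the surface complex that activates pro-MMP2, were read at high levels in nearly every library. By RPKM, Timp2 was the highest of the 46 genes in the mean of each line, with 114 ± 56.7 in EHE6, 102 ± 51.7 in EHE17 and 249 ± 1.96 in EHE26 (SD, n = 3, 3 and 2). Mmp2, gelatinase A, was at 60.5 ± 31.6 in EHE6, 28.8 ± 25.0 in EHE17 and 103 ± 55.3 in EHE26, and Mmp14, also named MT1-MMP, at 28.7 ± 8.61 in EHE6, 23.5 ± 9.57 in EHE17 and 69.4 ± 3.42 in EHE26. For Mmp2 the SD was over 50% of its mean in all 3 lines.

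In CPM, Mmp14 (chr14:54431612-54445364) was at 137, 146 and 230.2 CPM in EHE6, 144, 195 and 81.5 in EHE17 and 428 and 399 in EHE26. Both EHE26 libraries exceeded all others, the closest being EHE6 replicate 3. With log2 fold changes of 1.27 ± 0.39 against EHE6 (adjusted p = 0.202, edgeR) and 1.56 ± 0.39 against EHE17 (adjusted p = 0.124), it was not called. Timp2 (chr11:118301069-118355740) was at 248, 401 and 684 CPM in EHE6, 343, 227 and 619 in EHE17 and 975 and 964 in EHE26. Here too EHE26 was above all other libraries, and replicate 3 was the highest library within EHE6 and within EHE17. Against EHE17 its log2 fold change was 1.29 ± 0.51 (adjusted p = 0.272, not called). Mmp2 (chr8:92827291-92853420) was at 235, 292 and 85.7 CPM in EHE6, 114, 172 and 5.64 in EHE17 and 478 and 215 in EHE26. EHE17 replicate 3 was 20.2-fold or more below the other EHE17 libraries, and EHE26 replicate 2 lay inside the range of EHE6, while both EHE26 libraries were above all of EHE17. The other gelatinase, Mmp9, was at 0 to 0.974 CPM and thus low in every library.

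**Figure D3:**
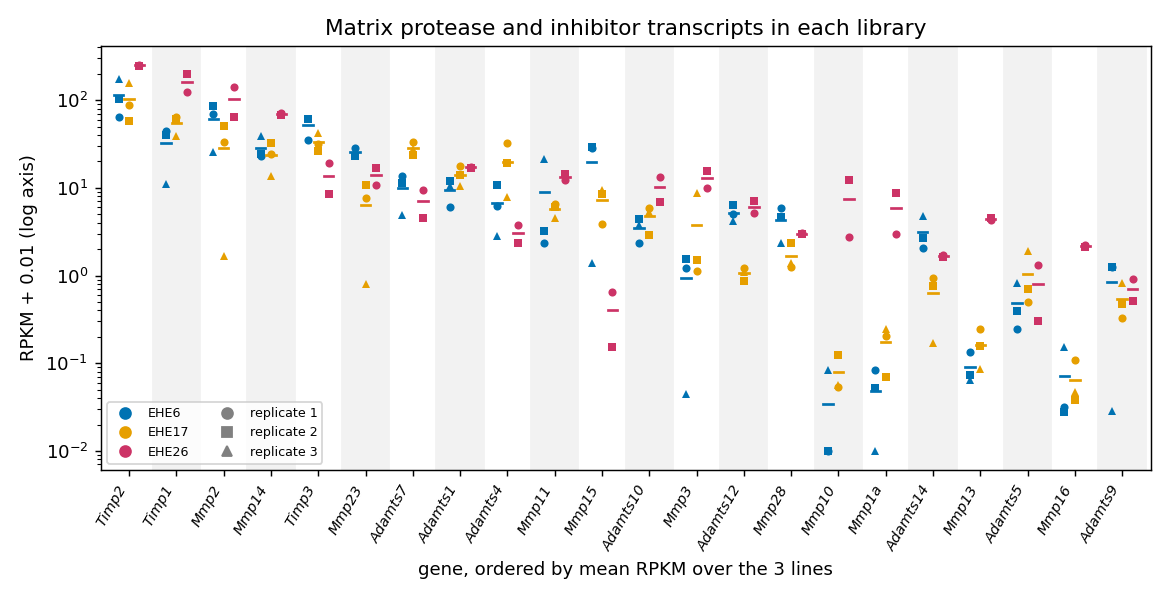
RPKM plus 0.01 (y axis, log axis) in each library for the 22 genes with a mean of at least 10 CPM in some line (x axis, ordered by mean RPKM), coloured by line with a symbol per replicate and a bar at the line mean. Timp2 stands first, and Mmp13, Mmp1a, Mmp10 and Mmp16 show the widest gap between EHE26 and the other lines.

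Timp1, an inhibitor of soluble MMPs, was at 39.9, 35.9 and 9.79 CPM in EHE6, 57.2, 54.3 and 34.7 in EHE17 and 110.4 and 177 in EHE26. The EHE26 libraries were the highest and EHE6 replicate 3 the lowest. Its log2 fold change was 2.33 ± 0.56 against EHE6 (adjusted p = 0.119, edgeR) and 1.56 ± 0.55 against EHE17 (adjusted p = 0.234), without a call. Against EHE6 it was called without EHE6 replicate 3 (adjusted p = 0.0195), its lowest library, and with the side of the principal component as a term (0.0128). That side was taken from these same counts, and EHE26 has no library on the first side. In 9 of 15 alternatives Timp1 was not called against EHE6. Timp3, which binds to the matrix and also inhibits ADAMTS enzymes, had the opposite order and was at 285, 496 and 492 CPM in EHE6, 255, 214 and 341 in EHE17 and 155 and 69.3 in EHE26. All 6 libraries of EHE6 and EHE17 lay above both EHE26 libraries. Its log2 fold change was -1.92 ± 0.45 against EHE6 (adjusted p = 0.112) and -1.27 ± 0.44 against EHE17 (adjusted p = 0.227), again without a call. Of the exon bases of Timp3, 21.3% overlap Syn3 on the opposite strand, which had 189 reads in all against 148197 for Timp3. Timp4 was at 0 to 1.41 CPM.

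Summed over the 46 genes, RPKM was 342, 429.6 and 397 in EHE6, 359, 325 and 339 in EHE17 and 713 and 710.1 in EHE26. Both EHE26 sums were above all others. Timp1, Timp2, Timp3, Mmp2 and Mmp14 made up 67.4% to 85.1% of the sum in every library. The 4 Timp genes held 42.0% to 62.1% in EHE6, 44.9% to 70.8% in EHE17 and 55.2% to 64.2% in EHE26, which overlap between the lines. The Adamts share was 8.07% to 11.7%, 16.5% to 25.8% and 5.88% to 7.68% in the same order, so it was highest in the 3 EHE17 libraries.

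**Figure D4:**
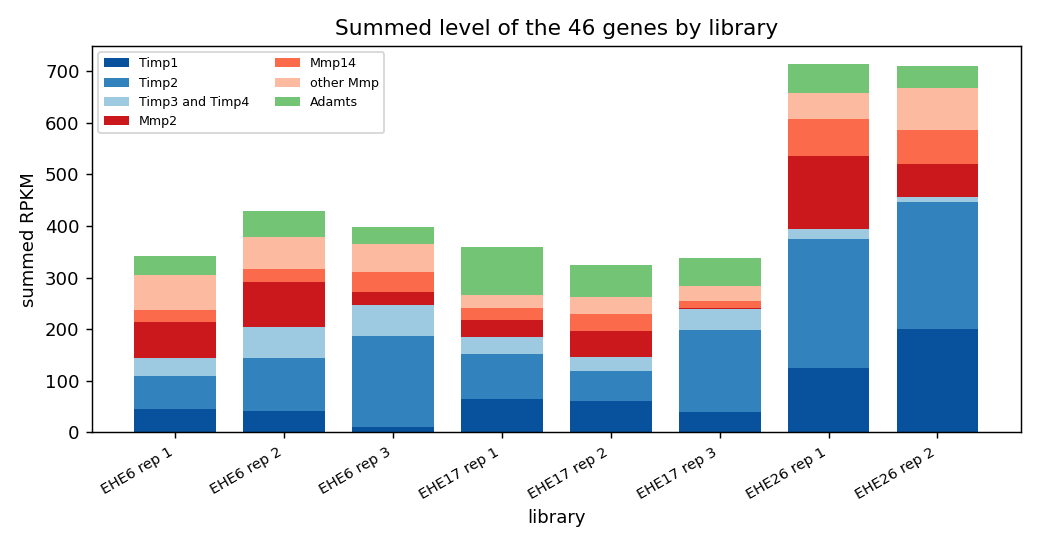
Summed RPKM of the 46 genes (y axis) in each of the 8 libraries (x axis), stacked by Timp1, Timp2, Timp3 with Timp4, Mmp2, Mmp14, the other Mmp genes and the Adamts genes. The EHE26 bars reach 713 and 710.1 against at most 429.6 in the other lines, and the blue Timp part is the largest single family in all libraries except replicate 1 of EHE6.

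The other membrane-type MMPs differed in direction. Mmp16 (MT3-MMP, chr4:17852893-18119145) was at 0.189, 0.155 and 1.24 CPM in EHE6, 0.845, 0.244 and 0.321 in EHE17 and 19.0 and 18.2 in EHE26. Only the EHE26 libraries were above 2 CPM. The log2 fold changes of 5.16 ± 1.03 against EHE6 (adjusted p = 0.0652, edgeR) and 5.30 ± 1.03 against EHE17 (adjusted p = 0.0646) were not called. They were called without EHE6 replicate 3, the highest library outside EHE26 (adjusted p = 0.00360 and 0.00311). Against EHE6 there was no call in 10 of 15 alternatives, and against EHE17 in 9 of 15. Mmp15 (MT2-MMP, chr8:95352268-95375080) was at 153, 156 and 7.52 CPM in EHE6, 20.7, 45.8 and 51.6 in EHE17 and 3.46 and 0.768 in EHE26. Its EHE26 libraries were the lowest, and EHE6 replicate 3 was 20.3-fold or more below the other EHE6 libraries and below all of EHE17. It had log2 fold changes of -5.64 ± 1.41 (adjusted p = 0.135) and -4.21 ± 1.31 (adjusted p = 0.190) and was not called. Mmp24, Mmp17 and Mmp25, the remaining membrane-type genes, were at 0 to 1.83, 0.147 to 3.19 and 0 to 1.60 CPM.

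Among the remaining Mmp genes, Mmp23, whose product lacks the usual haemopexin domain, was at 66.4, 53.5 and 62.2 CPM in EHE6, 18.1, 24.9 and 1.85 in EHE17 and 25.5 and 39.8 in EHE26. The EHE6 libraries lay within 1.24-fold of each other and above all others. Its log2 fold change in EHE17 against EHE6 was -2.02 ± 0.75 (adjusted p = 0.625, edgeR, not called). Mmp11, stromelysin 3, which is often found in stroma, was at 6.55, 8.82 and 58.5 CPM in EHE6, 18.1, 16.7 and 12.5 in EHE17 and 33.9 and 40.0 in EHE26. EHE6 replicate 3 stood out as the highest library, so EHE6 spanned the other lines. Mmp28, epilysin, was at 22.9, 17.9 and 8.95 CPM in EHE6, 4.87, 8.95 and 5.32 in EHE17 and 11.8 and 11.5 in EHE26. EHE17 was lowest in all but 1 case, its replicate 2 being equal to EHE6 replicate 3 at the digits shown, and the log2 fold change of -1.38 ± 0.43 was not called (adjusted p = 0.489). Mmp19 was at 2.99 to 12.8 CPM, with 22.3% of its exon bases shared with Tmem198b on the opposite strand.

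Adamts12 and Adamts7, a pair of related enzymes that cut cartilage oligomeric matrix protein, showed opposite orders. Adamts12 (chr15:11064790-11349231, plus strand) was at 54.4, 69.7 and 45.7 CPM in EHE6, 13.3, 9.26 and 12.0 in EHE17 and 55.6 and 77.4 in EHE26. The EHE17 libraries lay together and below all others, while EHE6 and EHE26 overlapped. Its log2 fold change was -2.30 ± 0.28 in EHE17 against EHE6 (adjusted p = 0.0367, edgeR), or 4.92-fold lower. Adding a replicate block moved the adjusted p to 0.05003 and the call was lost, by a margin in the fourth digit. It was also lost in 9 of the other 15 alternatives, with adjusted p up to 0.198: without EHE6 replicate 1 or 2, without any 1 of the EHE17 or EHE26 libraries, in the fit of the 2 lines alone, and in the third replicates with EHE26. The log2 fold change over all 16 alternatives stayed between -2.45 and -1.94. In EHE26 against EHE17 it was 2.53 ± 0.30 (adjusted p = 0.0120), or 5.78-fold higher, and this call was lost without EHE17 replicate 1 (adjusted p = 0.0715) or 2 (0.0583) and without EHE26 replicate 2 (0.0858).

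Adamts7 (chr9:90163069-90208071) was at 86.7, 70.6 and 30.7 CPM in EHE6, 208, 147 and 175 in EHE17 and 59.4 and 28.4 in EHE26. All EHE17 libraries were above all libraries of the other lines. The log2 fold change was 1.497 ± 0.43 in EHE17 against EHE6 (adjusted p = 0.436, edgeR) and -2.01 ± 0.51 in EHE26 against EHE17 (adjusted p = 0.128), so the separation did not pass the test. By RPKM, Adamts7 was at 9.98 ± 4.59 in EHE6, 28.2 ± 4.81 in EHE17 and 6.98 ± 3.49 in EHE26 (SD), and Adamts12 at 5.18 ± 1.11 in EHE6, 1.05 ± 0.188 in EHE17 and 6.09 ± 1.41 in EHE26, so that Adamts7 had the higher mean in EHE17 by a wide margin and the values came close to each other in EHE26.

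The proteoglycan-cutting enzymes Adamts1, Adamts4, Adamts5 and Adamts9 were all read, and none was called. Adamts1, which cuts versican and aggrecan, was at 32.3, 63.3 and 55.2 CPM in EHE6, 92.9, 73.6 and 55.6 in EHE17 and 91.8 and 90.4 in EHE26. EHE26 was higher than EHE6 in both libraries but lay inside the EHE17 range. Adamts4 was at 30.1, 52.3 and 13.6 CPM in EHE6, 156, 93.0 and 37.8 in EHE17 and 18.1 and 11.4 in EHE26. Within EHE6 and within EHE17, replicate 3 was the lowest library, and the EHE17 range of 4.14-fold reached down into that of EHE6. The log2 fold change of Adamts4 in EHE17 against EHE6 was 1.58 ± 0.61 (adjusted p = 0.654, edgeR) and in EHE26 against EHE17 -2.70 ± 0.75 (adjusted p = 0.156). Adamts5, an aggrecanase, was at 2.52, 4.16 and 8.72 CPM in EHE6, 5.32, 7.43 and 20.4 in EHE17 and 14.0 and 3.14 in EHE26, with ranges that overlapped throughout. Adamts9 was at 18.5, 18.9 and 0.273 CPM in EHE6, 4.78, 7.04 and 12.1 in EHE17 and 13.5 and 7.54 in EHE26. Its low value was again EHE6 replicate 3, 67.9-fold or more under the other EHE6 libraries.

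Of the procollagen N-proteinases, which remove the amino-terminal propeptide of fibrillar procollagens, Adamts14 was the best read in EHE6 and Adamts2 had its highest libraries in EHE26. Adamts14 was at 10.6, 13.8 and 24.6 CPM in EHE6, 4.83, 3.92 and 0.843 in EHE17 and 8.92 and 8.36 in EHE26. The EHE17 libraries were below all others, and EHE26 was below all of EHE6. In EHE17 against EHE6 the log2 fold change was -2.35 ± 0.64 (adjusted p = 0.392, edgeR), which was not called. Adamts2 was at 0.997, 2.24 and 1.28 CPM in EHE6, 0.969, 1.01 and 2.23 in EHE17 and 13.7 and 6.12 in EHE26, with both EHE26 libraries above the rest and a log2 fold change of 2.71 ± 0.63 against EHE6 (adjusted p = 0.109) that was not called. Adamts3 was at 0.0201 to 0.861 CPM. Adamts10, an enzyme of fibrillin microfibrils, was at 19.3, 36.5 and 31.3 CPM in EHE6, 48.6, 23.9 and 44.0 in EHE17 and 109 and 57.5 in EHE26. EHE26 was highest, though its replicate 2 exceeded the highest EHE17 library by 1.18-fold, and the log2 fold change against EHE6 was 1.52 ± 0.43 (adjusted p = 0.173). Adamts13, which trims von Willebrand factor and is best known from liver, was at 0 to 0.0996 CPM, too low to be tested.

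In EHE6, replicate 3 often stood apart from the other libraries. Of the 16 genes with a mean of at least 10 CPM in EHE6, 7 were more than 2-fold lower in replicate 3 than in both other replicates: Adamts4, Adamts7, Adamts9, Mmp2, Mmp15, Mmp28 and Timp1. Mmp11 was more than 2-fold higher, and 8 were within 2-fold of at least 1 of the others. Of the 14 such genes in EHE17, Adamts4, Mmp2 and Mmp23 were lower in replicate 3, Adamts5 was higher, and 10 were within 2-fold. Adamts4 and Mmp2 were thus low in replicate 3 of both lines. The share of all genes that differ in this way was not counted. Replicate 3 of both lines also lay apart on the first principal component, so these counts single out no trait of the proteases. Markers of other cell types differed between libraries as well, in both directions. The summed 10 fibroblast and mesenchymal markers were 278 to 450 CPM in EHE6, 1115 to 1816 in EHE17 and 318 to 1035 in EHE26. Thy1 was the largest part of that sum in every library except EHE6 replicate 3, where Pdgfra was. Thy1 was at 398, 349 and 8.80 CPM in EHE6, 933, 1347 and 1767 in EHE17 and 605 and 131 in EHE26, with EHE17 highest and EHE6 replicate 3 lowest. Pdgfra had another order, at 3.87, 5.21 and 252 CPM in EHE6, 1.76, 1.70 and 1.14 in EHE17 and 77.5 and 59.8 in EHE26, with EHE6 replicate 3 highest and EHE17 lowest. The summed 10 smooth muscle and pericyte markers were 227 to 752, 9.39 to 314 and 156 to 162 CPM in the same order of lines. Among them Acta2 was at 659, 268 and 15.1 CPM in EHE6, 12.6, 54.3 and 7.20 in EHE17 and 64.6 and 30.7 in EHE26, so it was highest in replicates 1 and 2 of EHE6. Rgs5 was at 0.221 to 183 CPM with its highest value in EHE6 replicate 3, Kcnj8 at 0.0439 to 250.2 CPM with its highest in EHE17 replicate 2, and Pdgfrb at 0.401 to 63.0 CPM with its highest in EHE26 replicate 1. The pericyte gene Cspg4 was the only marker called: it was at 0.391, 0.607 and 2.02 CPM in EHE6, 0.422, 0.432 and 0.0803 in EHE17 and 18.5 and 24.5 in EHE26, with a log2 fold change of 6.08 ± 0.95 in EHE26 against EHE17 (adjusted p = 0.0323, edgeR). Unlike the other calls, that of Cspg4 was not followed through the alternative settings. The contractile genes Cnn1, Myh11 and Tagln were at or under 1.43 CPM. The 10 epithelial markers summed to 26.0 to 105 CPM in EHE6, 1.22 to 33.6 in EHE17 and 3.77 to 31.5 in EHE26, and their median log2 fold change was -7.22 in EHE26 against EHE6 and -6.72 against EHE17. Cdh1 was at 8.08, 5.21 and 0 CPM in EHE6, 4.25, 5.76 and 0 in EHE17 and 0.0368 and 0.0219 in EHE26, near 0 in EHE26 and in replicate 3 of EHE6 and EHE17, while Krt18 was at 7.004, 4.30 and 89.2 CPM in EHE6, 5.85, 7.84 and 0.582 in EHE17 and 2.54 and 28.3 in EHE26, highest in EHE6 replicate 3. The part of other cell types in the differences described for the proteases was not tested.

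Other genes of matrix proteolysis were read from lists of related pathways. Among 10 tested genes of plasminogen activation, which can switch on pro-MMPs through plasmin, Serpinb2, the inhibitor PAI-2, was the only one called. The share of all tested genes called was 1.26% in EHE26 against EHE6 and 1.08% in EHE26 against EHE17. Serpinb2 also reached the low-count filter only through the EHE26 libraries, so it had to differ. It was higher in EHE26, at 1.01 and 6.43 CPM against at most 0.0282 elsewhere, with a log2 fold change of 7.43 ± 1.30 against EHE6 (adjusted p = 0.0408, edgeR) and 7.96 ± 1.33 against EHE17 (adjusted p = 0.0391). Both calls were lost in 8 of 15 alternatives, among them leaving out either EHE26 library, replicate 1 or 2 of EHE6 or replicate 1 or 2 of EHE17, with adjusted p up to 0.282 and 0.259, and the call against EHE17 also without its replicate 3 (0.0806). The highest gene of that list by RPKM, the urokinase gene Plau, was at 2226, 2807 and 438 CPM in EHE6, 3060.2, 2576 and 3947 in EHE17 and 2057 and 1195 in EHE26.

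Among 12 genes for activators, other inhibitors and clearance, 1 was called in EHE26 against EHE6 and 1 in EHE26 against EHE17. Over all tested genes the shares called were 1.26% and 1.08% in the same order. Reck, a membrane-anchored inhibitor of MMPs, was at 14.3, 22.7 and 18.6 CPM in EHE6, 30.9, 22.9 and 24.1 in EHE17 and 80.1 and 69.04 in EHE26. Both EHE26 libraries were at least 2.23 times as high as every other library, and the log2 fold change against EHE6 was 2.01 ± 0.28 (adjusted p = 0.0172, edgeR). This call was lost in 6 of 15 alternatives, including without EHE6 replicate 1 or 2 or either EHE26 library, with adjusted p up to 0.152. Lrp1, the endocytic receptor that clears MMP and TIMP proteins, was at 11.2, 14.1 and 42.3 CPM in EHE6, 12.2, 10.1 and 7.86 in EHE17 and 98.0 and 94.2 in EHE26. EHE26 exceeded all libraries, and among the others EHE6 replicate 3 came nearest. The call was against EHE17, with a log2 fold change of 3.25 ± 0.56 (adjusted p = 0.0425). It was lost in 7 of 15 alternatives, including without EHE6 replicate 2 and without any 1 library of EHE17 or EHE26, with adjusted p up to 0.207, and at 0.102 with the side of the principal component as a term. The matricellular gene Sparc was the highest of that list by RPKM, at 2786 to 9266 CPM.

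None of the 10 tested ADAM genes, 12 cathepsin and cystatin C genes, 7 ADAMTS-like genes and 19 tested substrate genes was called in any comparison. Their highest members by mean RPKM over the lines were Adam9 (151, 212 and 682 CPM in EHE6, 252, 113 and 349 in EHE17 and 604 and 705 in EHE26), the cystatin C gene Cst3 (228 to 701 CPM), Adamtsl4 (15.7, 16.0 and 165 CPM in EHE6, 40.7, 30.7 and 28.8 in EHE17 and 55.7 and 105 in EHE26) and the basement membrane collagen gene Col4a1 (3783, 4380.1 and 1292 CPM in EHE6, 3528, 3387 and 2324 in EHE17 and 1992 and 2172 in EHE26). For Adam9 and Adamtsl4, EHE6 replicate 3 was far above the other EHE6 libraries, and for Col4a1 it was far below them.

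The remaining genes of the 3 families were at low levels. Highest line means of 1 to 10 CPM were found for 8 genes: Adamts2, Adamts6, Adamts8, Adamts17, Mmp12, Mmp17, Mmp19 and Mmp25, with no library above 13.7 CPM. A further 16 had means under 1 CPM in every line and no library above 1.83 CPM. These were Adamts3, Adamts13, Adamts15, Adamts16, Adamts18, Adamts19, Adamts20, Mmp1b, Mmp7, Mmp8, Mmp9, Mmp20, Mmp21, Mmp24, Mmp27 and Timp4. Of them, Adamts13, Adamts19, Adamts20, Mmp7, Mmp8, Mmp20, Mmp21 and Mmp27 were not tested, having at most 36 reads each over the 8 libraries. Among the low but tested genes, Adamts8, a proteoglycanase, was at 0.0539, 0.0423 and 0.483 CPM in EHE6, 0, 0.0443 and 0 in EHE17 and 0.809 and 1.64 in EHE26, and Adamts6 at 0.498, 0.621 and 1.13 CPM in EHE6, 0.584, 0.199 and 0.241 in EHE17 and 1.71 and 2.06 in EHE26. Both were above all other libraries in EHE26, and neither was called against EHE17 (log2 fold change 6.06 ± 1.62, adjusted p = 0.145, and 2.46 ± 0.72, adjusted p = 0.169, edgeR).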

How the data were processed

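RNA was measured by polyA-selected sequencing of 8 libraries, and the authors deposited raw read counts for each Ensembl gene. The reads were aligned with HISAT2 to mm10, per the submitters' processing notes. Its version, how reads were counted, with which annotation and with what strand setting, is not given in the sources used here, so reads of a gene and of an overlapping gene on the other strand cannot be told apart. Of 55401 identifiers, 55141 were found in GENCODE M21, which gave symbols, positions and exon lengths, and the others held at most 0.0181% of a library.

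Counts were scaled with TMM, filtered with filterByExpr by line and fitted with edgeR 4.0.16 (R 4.3.3, quasi-likelihood test, two-sided) over the 8 libraries, with line as the sole factor. Adjustment of the p-values was by the Benjamini-Hochberg method over 18882 genes within each of 3 comparisons. The SE is the log2 fold change divided by the square root of F. The common biological coefficient of variation was 0.6. The fit was also run on simulated counts, drawn independently at that common coefficient. They lacked the split on the first principal component, so they cannot show how the fit behaves under it. RPKM is TMM-scaled CPM per kilobase of merged exons. Limits from 3 counts cover counting error only.

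The genes and lists were chosen with earlier results of these data known. Values in every library are given for genes called in any comparison or with a mean of at least 10 CPM in some line, for Mmp2, Mmp9, Mmp14, Timp1 to Timp4, Adamts1 and Adamts13 (low ones as a range), and, from each related list, for its called genes and its highest gene by RPKM. Adamts2, Adamts6, Adamts8, Mmp12, single marker genes other than Pecam1 and Ptprc, Adamts3, Mmp17, Mmp19, Mmp24, Mmp25, the chromosome 9 neighbours and the non-overlap counts were added after values were seen. The motif search and its motifs were also chosen at that stage.

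Departures from the line means correlated at 0.13, 0.18 and 0.57 for libraries of the same number in EHE6 and EHE17, all above the 0.1 set for reading the replicate block beside that comparison. Crossed pairs correlated more for EHE6 replicate 1 with EHE17 replicate 2 (0.54) and EHE6 replicate 2 with EHE17 replicate 1 (0.62), so the numbers of replicates 1 and 2 are no clear pairing. EHE26 numbers correlated at 0.18 and -0.10 with EHE6 and -0.06 and -0.11 with EHE17 and pair nothing. For comparisons with EHE26, which has no replicate 3, the block thus adjusts for no pairing. Those comparisons then rest mainly on replicates 1 and 2, where EHE26 lies on the other side of the first principal component from EHE6 and EHE17. Alternatives were RLE scaling, DESeq2 1.42.0, no low-count filter, 2 lines per fit, the replicate block, the side of the first principal component as a term or alone, and leaving out each library.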

Additional observations from a re-analysis of the deposited data

How the results depend on the processing

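The number of genes of the 3 families called depended on the setting. For EHE17 against EHE6 the count of 1 became 2 with DESeq2, 0 in the fit of the 2 lines alone and 0 with the replicate block. It ran from 0 to 1 when each library was left out. The third replicates with EHE26 alone leave 1 library each of EHE6 and EHE17, so no counts are given for that setting. For EHE26 against EHE6 the count of 2 became 10 with DESeq2, 7 without the low-count filter, 1 in the fit of the 2 lines, 6 with the replicate block and 5 in the third replicates with EHE26, and 0 to 7 with a library left out. For EHE26 against EHE17 the count of 2 became 12, 10, 7, 9 and 7 in these settings, 3 with the side of the first principal component as a term, and 0 to 13 with a library left out. The highest leave-one-out counts came without EHE6 replicate 3: Mmp10, Mmp11, Mmp13, Mmp15, Mmp16, Mmp1a and Timp1 against EHE6, and against EHE17 these with Adamts2, Adamts4, Adamts7, Adamts8, Adamts12 and Mmp14.

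Over all genes, the 27 calls in EHE17 against EHE6 became 397 with DESeq2, 142 without the filter, 7 in the fit of the 2 lines, 102 with the side as a term, 473 in the third replicates with EHE26 and 97 in replicates 1 and 2 alone, and 1 to 54 with a library left out. The replicate block gave 33. The 237 calls in EHE26 against EHE6 became 1585 (672 higher and 913 lower), 547, 126 and 356 in the first 4 of these settings, 1459 (674 higher and 785 lower) with the replicate block, and 65 to 1632 with a library left out, where the main split was 207 higher and 30 lower. The 203 calls in EHE26 against EHE17 (168 higher and 35 lower) became 1685 (693 higher and 992 lower), 745, 764 and 319, then 612 in the third replicates with EHE26, 1860 (918 higher and 942 lower) with the replicate block, and 2 to 1415 with a library left out. The cause of these shifts was not tested.

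RLE scaling changed no call among the genes of the 3 families. Of the 34 fold changes of these genes with an unadjusted p under 0.05, 0 changed direction under any alternative. Of the other 80, 45 changed sign under at least 1 alternative. The 34 were picked by their p in these same libraries, which largely fixes their direction under the alternatives. The contrast with the other 80 is thus no separate support.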
